A study of Sus scrofa with 6 samples.

Results

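RAB GTPases are the largest family of small GTPases and act as switches that give each membrane compartment its identity. A RAB bound to GTP sits on a membrane by its lipid tails and recruits effectors that move, tether and fuse vesicles. Endocytic members route cargo inward to endosomes and lysosomes, recycling members return it to the cell surface, and secretory members carry new cargo from the endoplasmic reticulum through the Golgi to the surface. In polarized epithelia, the recycling members of the RAB11 group maintain the apical membrane, and RAB27 and RAB35 are known for their part in exosome release.

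The family was read from a table of transcript levels in primary porcine endometrial epithelial cells, the lining cells of the uterus. Rows whose gene name began with RAB and a digit were taken, which gave 45 of the 10915 rows with values. Of these, 39 rows encode RAB GTPases under 38 symbols, since RAB28 has 2 rows, and 6 encode proteins named after a RAB that they bind or regulate. The GTPase rows were sorted by textbook role into 12 endocytic, 9 recycling and 14 secretory members and 4 others. The classes were chosen with earlier results of these data known. RefSeq lists 59 GTPase symbols of these classes for the pig, and 18 of them, among them RAB5A, RAB5B, RAB12 and RAB20, were matched to no row and are not analysed here.

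The study compared 2 groups of 3 libraries each. Cells of both groups were isolated with EDTA and collagenase from uteri collected at a slaughterhouse and were in primary culture at passage 3. The exosome group (EXO) received 10 µg of protein per well of vesicles for 48 h. These vesicles had been precipitated with a polymer reagent from the sperm-rich fraction of boar seminal fluid. The control group (CTRL) received no exosomes, and the labels do not say whether it received the vehicle, nor what cycle stage the uteri were in. No label ties a library to its own uterus or well, so a p-value here rests on variation among libraries that may be only technical.

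Levels are read here as FPKM, a count of fragments divided by the length of the transcript and the size of the library. No header names the unit, and on that reading levels of different genes can be set side by side. No counts were in the table, which leaves the depth of each library unknown. The FPKM of all rows summed to between 721273 and 732922 in the control libraries and between 690258 and 711250 in the exosome libraries. Of 8 epithelial markers, 7 were found, led by KRT19 and KRT8, with a summed level of 9203 to 9532 FPKM in controls and 8133 to 8941 FPKM in exosome libraries. CDH1 was matched to no row. Of 8 stromal markers, 4 were found, with a summed level of 2277 to 2498 FPKM in controls and 1842 to 1943 FPKM in exosome libraries, almost all of it CD90. The fibroblast markers DCN, LUM, PDGFRA and PDGFRB were matched to no row. Immune markers (2 of 5 found) summed to at most 11.8 FPKM in any library, and endothelial (1 of 5) and red cell markers (1 of 3) to at most 2.00 FPKM. None of 4 smooth muscle markers was found.

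RAB transcripts spanned more than 2 orders of magnitude in these cells. RAB7A, which drives traffic from late endosomes to lysosomes, had the highest level of the family, with a mean of 202.0 FPKM over the 6 libraries and rank 518 among all rows. RAB1B, which acts between the endoplasmic reticulum and the Golgi, followed at 184.9 FPKM, and RAB5C, which drives fusion of early endosomes, at 149.0 FPKM. These 3 made up 31.5% of the summed RAB GTPase level. The identifier of the RAB1B row is listed under its close relative RAB1A in the reference table, so its level may belong to either gene.

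A level of 50 FPKM or more was reached by 12 of the 39 rows, and 22 lay above the median row of the table, at 14.8 FPKM. Next in order were RAB13 (122.4 FPKM), which delivers proteins to tight junctions, RAB25 (104.1 FPKM), the RAB11 relative of epithelial cells, and RAB10 (97.4 FPKM), which serves the basolateral surface. RAB11A, RAB14, RAB32, RAB11B and RAB21 followed between 67.7 and 76.6 FPKM, close enough that their libraries overlapped with those of a neighbour in that order. RAB6A and RAB2A, which only the reference table names, stood at 85.5 and 77.0 FPKM and are not in this order. At the low end, 9 rows had means under 5 FPKM: RAB15, RAB36, RAB29, RAB3A, RAB37, RAB27B, RAB42, RAB33A and RAB17. RAB17, an epithelial GTPase of transcytosis, and RAB33A were at 0.959 and 0.965 FPKM and fell short of the mean of 1 FPKM required for testing, which left 37 GTPase rows. RAB42, at 1.81 FPKM, was the lowest row tested.

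**Figure D1:**
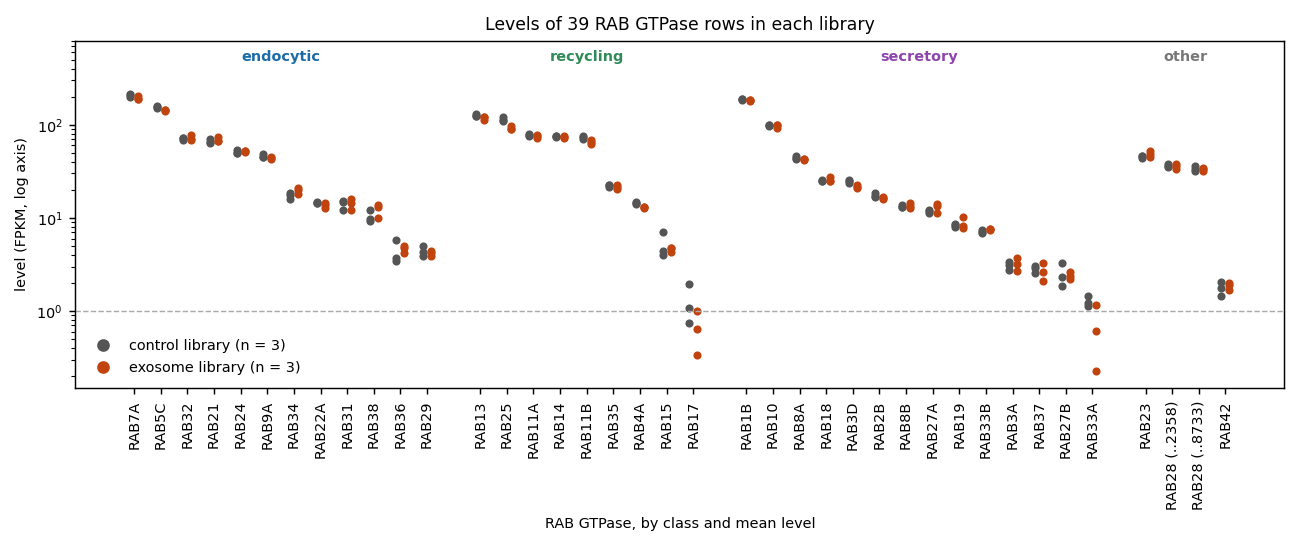
Level of each of the 39 RAB GTPase rows in FPKM (log axis) in every control and exosome library, by class and ordered by mean level. The dashed line marks the mean of 1 FPKM required for testing. RAB17 and RAB33A have means under it, and RAB7A is highest at 202.0 FPKM.

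Endocytic members held the highest share of the summed RAB level. The 12 endocytic rows held 37.9% to 38.4% of the summed RAB GTPase level in the control libraries and 38.3% to 38.8% in the exosome libraries. The recycling rows held 29.2% to 29.7% in controls and 27.8% to 28.2% in exosome libraries. Secretory rows held 25.7% in each control library and 26.1% to 26.5% in the exosome libraries. The ranges of the groups do not overlap for recycling or for secretory rows, and they do for endocytic rows. The shares add to a whole, so a lower share of 1 class raises the others. RAB6A, RAB2A and RAB4B, in rows that only the reference table names, are not in these sums (means 85.5, 77.0 and 12.7 FPKM). The shares, and the order of recycling above secretory rows, therefore hold only for rows with a RAB symbol.

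Several pairs of close relatives were expressed at very unequal levels. RAB8A, which carries cargo from the Golgi to the surface, was at 3.33 ± 0.176 times the level of RAB8B in controls and 3.14 ± 0.225 times in exosome libraries (SD, n = 3). RAB27A, which docks secretory granules and multivesicular bodies at the plasma membrane, was at 5.038 ± 1.497 times the level of RAB27B in controls and 5.53 ± 1.05 times in exosome libraries. RAB3D, of exocrine granules, was at 8.10 ± 0.998 times the level of RAB3A, best known from synaptic vesicles, and at 6.94 ± 1.40 times in the exosome libraries. All 3 ratios overlapped between the groups.

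The comparison of exosome with control libraries asks whether transcripts of the RAB family differ after contact with seminal exosomes. Each gene was tested with limma on log2(FPKM + 1), with adjustment over all 10846 genes tested. No RAB GTPase passed an adjusted p of 0.05, and neither did any gene of the table (0% called). The lowest adjusted p in the family was 0.170, for RAB25. At an unadjusted p under 0.05, 5 of 37 GTPases were lower (13.5%, where all genes gave 7.5%) and 0 were higher (all genes 5.06%). The 5 were RAB25, RAB11B, RAB4A, RAB5C and RAB3D.

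The exosome libraries lay entirely below the control libraries in 6 GTPases, these 5 and RAB13 (16.2%, where all genes gave 10.4%). They lay entirely above them in 1, RAB33B (2.70%, where all genes gave 8.29%). Together that is 7 of 37 without overlap in either direction, where all genes gave 18.7%. Of all genes, 12.6% had an unadjusted p under 0.05 in either direction. The median log2 change over the 37 GTPases was -0.03, where the median over all genes tested was -0.00229. The number lower at an unadjusted p under 0.05 was 2 without control replicate 1, 1 without control replicate 2 and 3 without control replicate 3. It was 3 without exosome replicate 1, 6 without exosome replicate 2 and 2 without exosome replicate 3. All genes gave 11.8% lower without exosome replicate 2. Their share was not counted in the other fits that left out a library or scaled the libraries. With each library scaled to the same FPKM sum, 1 GTPase was lower (RAB25) and 1 higher (RAB34), in place of 5 and 0. RAB25 was among those lower in all of these fits.

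**Figure D2:**
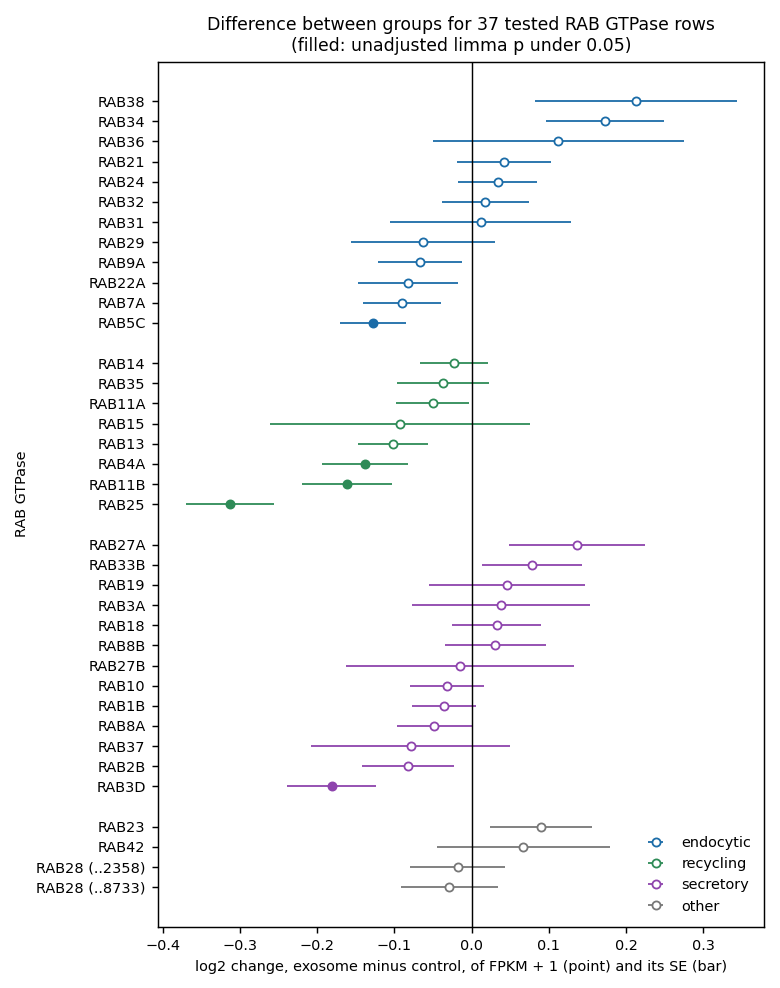
Log2 change of FPKM + 1, exosome minus control, with its SE from limma, for the 37 RAB GTPase rows tested, by class. Filled points had an unadjusted p under 0.05; these are RAB25, RAB11B and RAB4A among recycling, RAB5C among endocytic and RAB3D among secretory members.

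Recycling RABs had lower estimates in the exosome libraries than the other classes. The log2 change was below 0 in 8 of 8 members tested, with a median of -0.10. It was below 0 in 6 of 8 when each library was scaled to the same FPKM sum, since RAB14 and RAB35 then had log2 changes of 0.03 and 0.01. It was below 0 in 7 of 8 without control replicate 3, where RAB15 was at 0.12. Over all genes tested, 50.8% had a log2 change below 0 in the unscaled fit of all 6 libraries. With each library scaled to the same FPKM sum, the median log2 change was 0.045 over all genes and -0.052 over recycling members. At an unadjusted p under 0.05, 3 of 8 were lower in the comparison of all 6 libraries (37.5%, where all genes gave 7.5%), and 1 (RAB25) with libraries scaled to the same sum. RAB25 was also the 1 left without control replicate 1 or 2 or exosome replicate 1 or 3. Without control replicate 3, 2 were lower, and without exosome replicate 2, 3 were (all genes 11.8% in the latter fit). The difference between recycling and other RABs was not tested, and the classes were chosen with earlier results of these data known.

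RAB25 lies on chromosome 4, from 93961136 to 93970742 of Sscrofa11.1 (RefSeq, matched by symbol). Its level was 113.9, 122.4 and 110.0 FPKM in control replicates 1, 2 and 3 and 89.8, 91.2 and 97.1 FPKM in exosome replicates 1, 2 and 3. The lowest control library was above the highest exosome library. The mean was 115.4 ± 6.36 FPKM in controls and 92.7 ± 3.89 FPKM in exosome libraries (SD, n = 3), which is 19.7% lower. The log2 change was -0.31 with an SE of 0.06 and a 95% interval from -0.45 to -0.18. The adjusted p was 0.170 in limma, and it ranged from 0.0600 to 0.632 over the alternatives.

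Most epithelial markers were also lower in the exosome libraries. KRT19, the keratin with the highest level, was at 3193 ± 88.8 FPKM in controls and 2925 ± 222 FPKM in exosome libraries (SD, n = 3). CLDN4, a tight junction claudin, was at 1029 ± 33.9 FPKM in controls and 811.9 ± 117 FPKM in exosome libraries (SD, n = 3). ELF3, an epithelial transcription factor, was at 195.0 ± 6.18 and 165.5 ± 9.22 FPKM. EPCAM, listed as TACSTD1, was higher, at 345.8 ± 12.5 and 357.9 ± 15.3 FPKM. CLDN4 and EPCAM were chosen after their values were seen. CD90, a stromal marker, was at 2328 ± 93.7 and 1849 ± 69.4 FPKM (log2 change -0.33, adjusted p = 0.134 in limma). Of the 4 stromal markers found, 1 (CD90) was lower at an unadjusted p under 0.05 (all genes 7.5%) and 0 higher (all genes 5.06%). COL1A1, COL1A2 and COL3A1 overlapped between the groups, and COL1A1 ran from 0.887 to 30.0 FPKM over the 6 libraries. Of the 7 epithelial markers, 4 were lower at an unadjusted p under 0.05 (all genes 7.5%) and 0 higher (all genes 5.06%). The 4 were KRT8, CLDN4, MUC1 and ELF3. KRT19 and KRT18 were not among them and overlapped between the groups, with log2 changes of -0.13 and -0.04. In these bulk libraries, fewer cells of a type and less RNA per cell cannot be told apart, and the part of the marker difference in the RAB values was not tested.

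RAB11B and RAB11A are close relatives that mark the recycling endosome. RAB11B was at 76.5, 74.1 and 69.8 FPKM in the control replicates and 65.4, 69.1 and 62.2 FPKM in the exosome replicates. The groups did not overlap, but control replicate 3 and exosome replicate 2 were less than 1 FPKM apart. Its log2 change was -0.16 with an SE of 0.06 (adjusted p = 0.338 in limma). RAB11A was at 77.8, 79.3 and 76.7 FPKM in the control replicates and 74.9, 72.8 and 78.1 FPKM in the exosome replicates. Exosome replicate 3 lay within the control range, and the log2 change was -0.05, with a 95% interval from -0.16 to 0.06.

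Set against RAB11A within each library, RAB25 stood at a ratio of 1.46, 1.54 and 1.43 in the control replicates and 1.198, 1.253 and 1.244 in the exosome replicates. The groups of this ratio did not overlap. The same ratio for RAB11B was 0.943 ± 0.0369 in controls and 0.873 ± 0.0760 in exosome libraries (SD, n = 3), and its groups overlapped. These ratios do not change when a whole library is multiplied by a common factor, but quantile normalization can change them. They were chosen after the values were seen and were not tested.

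RAB4A, of the fast recycling route from early endosomes, was at 14.8, 14.4 and 14.2 FPKM in the control replicates and 12.9, 13.2 and 13.0 FPKM in the exosome replicates. Its spread was small in both groups, and the groups did not overlap. The log2 change was -0.14 with an SE of 0.06 (adjusted p = 0.373 in limma). RAB13 was at 125.8, 129.6 and 124.8 FPKM in the control replicates and 120.1, 113.7 and 120.4 FPKM in the exosome replicates. These groups did not overlap either, with a log2 change of -0.10 and a 95% interval from -0.21 to 0.00325.

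The remaining recycling members overlapped between the groups. RAB14, of traffic between the Golgi and endosomes, was at 74.80 ± 1.183 FPKM in controls and 73.6 ± 1.39 FPKM in exosome libraries (SD, n = 3). RAB35, of rapid recycling at the plasma membrane, was at 22.1 ± 0.674 and 21.6 ± 1.10 FPKM, with a log2 change of -0.04 and a 95% interval from -0.17 to 0.10. RAB15 was at 4.01, 4.36 and 7.04 FPKM in the control replicates and between 4.32 and 4.80 FPKM in the exosome libraries. Its control mean rests on replicate 3. RAB17 was at 0.747, 1.09 and 1.94 FPKM in the control replicates and 0.340, 1.01 and 0.635 FPKM in the exosome replicates, overlapping between the groups. Without the filter on low values its log2 change was -0.43 (adjusted p = 0.457 in limma).

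**Figure D3:**
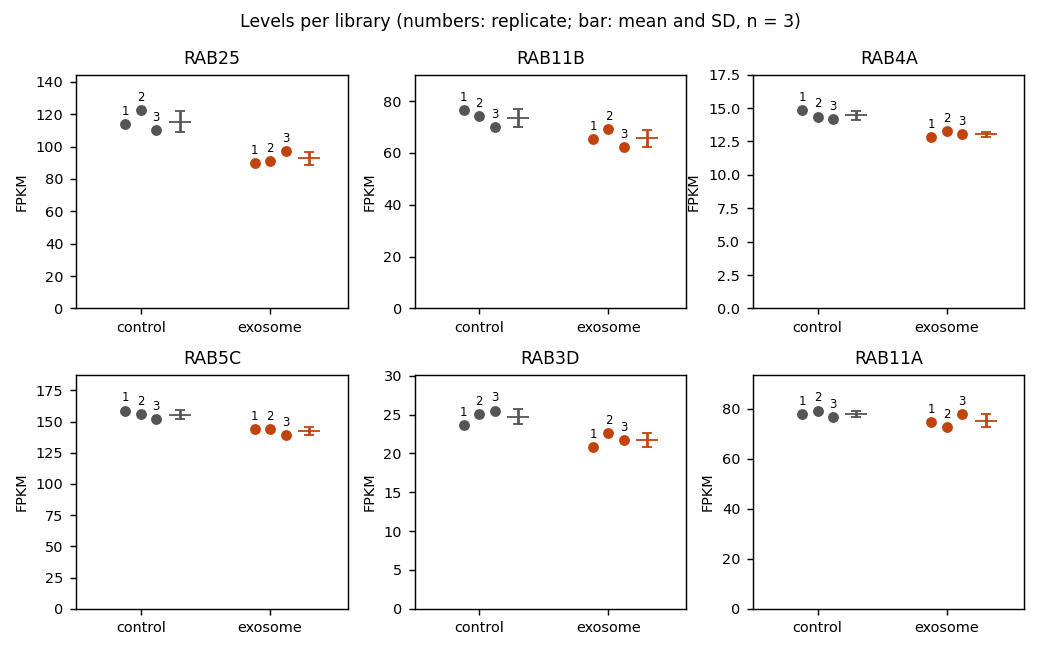
Level in FPKM of RAB25, RAB11B, RAB4A, RAB5C and RAB3D, the 5 GTPases lower at an unadjusted p under 0.05, and of RAB11A, in each library, numbered by replicate. Bars give the mean and SD of 3 libraries. The groups do not overlap in the first 5, and they overlap in RAB11A.

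Endocytic RABs pointed both ways. Of 12 members tested, 7 had a log2 change above 0 and 5 below, with a median of 0.01. At an unadjusted p under 0.05, 1 of 12 was lower (8.33%, near the 7.5% of all genes) and 0 higher (all genes 5.06%). Set against the mean of the controls, the class median was 0.02, -0.01 and -0.01 in exosome replicates 1, 2 and 3, within the range of the control libraries (-0.02 to 0.03).

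RAB5C lies on chromosome 12, from 20613991 to 20635952 of Sscrofa11.1. It was at 158.8, 156.3 and 151.7 FPKM in the control replicates and 144.2, 143.8 and 139.0 FPKM in the exosome replicates, so the groups did not overlap. The mean was 8.53% lower in the exosome libraries, with a log2 change of -0.13 (SE 0.04) and an adjusted p of 0.323 in limma. RAB7A was at 215.2, 208.7 and 201.0 FPKM in the control replicates and 190.4, 205.7 and 190.9 FPKM in the exosome replicates. Exosome replicate 2 lay within the control range. RAB7A had a log2 change of -0.09, and of -0.13 without exosome replicate 2 (adjusted p = 0.503 and 0.167 in limma).

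Other early endosome members stayed close between the groups. RAB21, known for integrin uptake, was at 66.7 ± 3.28 FPKM in controls and 68.7 ± 3.93 FPKM in exosome libraries (SD, n = 3). RAB22A was at 14.5 ± 0.257 and 13.7 ± 0.862 FPKM, and RAB31 at 14.0 ± 1.69 and 14.1 ± 1.94 FPKM. All 3 overlapped between the groups, and their log2 changes were 0.04, -0.08 and 0.01.

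The highest estimates of the endocytic class were in late endosome and lysosome members. RAB34, which positions lysosomes and takes part in cilium formation, was at 17.6, 18.3 and 16.0 FPKM in the control replicates and 19.8, 18.1 and 21.0 FPKM in the exosome replicates. Exosome replicate 2 lay within the control range and the other two above it. This gave a log2 change of 0.17 (SE 0.08), and of 0.23 without exosome replicate 2 (adjusted p = 0.404 and 0.141 in limma).

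RAB38, of lysosome-related organelles, was at 12.04, 9.81 and 9.38 FPKM in the control replicates and 13.0, 10.0 and 13.8 FPKM in the exosome replicates. Here too exosome replicate 2 lay within the control range. RAB38 had a log2 change of 0.21, and of 0.34 without exosome replicate 2 (adjusted p = 0.537 and 0.135 in limma). RAB32, its close relative, was far higher in level, at 71.2 ± 2.38 FPKM in controls and 72.1 ± 4.09 FPKM in exosome libraries (SD, n = 3), with a 95% interval of the log2 change from -0.11 to 0.15. RAB9A, which returns receptors from late endosomes to the Golgi, was at 46.1 ± 2.05 and 43.9 ± 1.46 FPKM, and RAB24, linked to autophagy, at 50.9 ± 2.32 and 52.0 ± 0.704 FPKM.

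RAB36 and RAB29 were low. RAB36 was at 3.74, 3.42 and 5.86 FPKM in the control replicates and between 4.22 and 5.03 FPKM in the exosome libraries, so control replicate 3 was above all others. RAB29, of the Golgi and lysosomes, was at 4.38 ± 0.508 FPKM in controls and 4.14 ± 0.249 FPKM in exosome libraries (SD, n = 3).

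Secretory RABs also pointed both ways, with 6 of 13 members tested above 0 and 7 below, and a median log2 change of -0.02. At an unadjusted p under 0.05, 1 of 13 was lower (7.69%, near the 7.5% of all genes) and 0 higher (all genes 5.06%). The 5 tested members of the endoplasmic reticulum and Golgi had a median of 0.03, and the 8 of exocytosis had a median of -0.02. When each library was scaled to the same FPKM sum, the median of the secretory class was 0.02.

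RAB3D lies on chromosome 2, from 70023470 to 70035679 of Sscrofa11.1. It was at 23.69, 25.03 and 25.52 FPKM in the control replicates and 20.9, 22.6 and 21.7 FPKM in the exosome replicates. The groups did not overlap, and the mean was 12.3% lower in the exosome libraries. The log2 change was -0.18 with an SE of 0.06 and a 95% interval from -0.31 to -0.05 (adjusted p = 0.309 in limma). RAB3A was at 3.08 ± 0.291 FPKM in controls and 3.20 ± 0.544 FPKM in exosome libraries (SD, n = 3).

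RAB27A, RAB27B and RAB37, of granule docking and secretion, overlapped between the groups. RAB27A was at 12.3, 11.8 and 11.2 FPKM in the control replicates and 14.3, 11.4 and 13.6 FPKM in the exosome replicates. Exosome replicates 1 and 3 lay above every control library and exosome replicate 2 within them. This gave a log2 change of 0.14 with a 95% interval from -0.07 to 0.34, and it was 0.22 without exosome replicate 2 (adjusted p = 0.558 and 0.124 in limma). RAB27B was at 1.85, 3.24 and 2.31 FPKM in the control replicates and between 2.19 and 2.63 FPKM in the exosome libraries, all within the control range. Its 95% interval, from -0.36 to 0.33 in log2, spans both signs. RAB37, also of granule secretion, was at 2.84 ± 0.229 and 2.66 ± 0.596 FPKM (SD, n = 3).

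The GTPases of constitutive transport to the surface differed little. RAB8A was at 44.1 ± 1.49 FPKM in controls and 42.6 ± 0.436 FPKM in exosome libraries (SD, n = 3). RAB8B was at 13.3 ± 0.345 and 13.6 ± 0.865 FPKM. RAB10 was at 98.5 ± 1.01 and 96.3 ± 4.01 FPKM, with a 95% interval of the log2 change from -0.14 to 0.08. All 3 overlapped between the groups.

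In the early secretory pathway, the RAB1B row was at 187.2 ± 3.69 FPKM in controls and 182.6 ± 3.36 FPKM in exosome libraries (SD, n = 3), with a 95% interval of the log2 change from -0.13 to 0.06. RAB33B, which acts at the Golgi and in autophagy, was at 6.99, 6.87 and 7.36 FPKM in the control replicates and 7.56, 7.61 and 7.39 FPKM in the exosome replicates. It was the 1 GTPase whose exosome libraries all lay above the controls, by less than 0.1 FPKM at the closest pair, with a log2 change of 0.08 (adjusted p = 0.644 in limma). RAB2B, of the Golgi, was at 17.4 ± 0.858 and 16.4 ± 0.412 FPKM, RAB18, of the endoplasmic reticulum and lipid droplets, at 25.4 ± 0.371 and 26.0 ± 1.45 FPKM, and RAB19 at 8.37 ± 0.312 and 8.73 ± 1.34 FPKM. RAB33A was at 1.21, 1.13 and 1.45 FPKM in the control replicates and 0.615, 0.226 and 1.16 FPKM in the exosome replicates. Only exosome replicate 3 lay within its control range, and without the filter on low values its log2 change was -0.48 (adjusted p = 0.380 in limma).

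The 4 other rows, of cilium-linked or less placed GTPases, all overlapped between the groups. RAB23, a regulator of hedgehog signalling, was at 43.8, 45.9 and 46.5 FPKM in the control replicates and 48.8, 44.6 and 52.0 FPKM in the exosome replicates. Its log2 change was 0.09, and 0.15 without exosome replicate 2 (adjusted p = 0.601 and 0.182 in limma). The 2 rows of RAB28, linked to the cilium, had log2 changes of -0.03 and -0.02 at 33.6 and 36.1 FPKM over the 6 libraries. RAB42 was at 1.75 ± 0.299 and 1.87 ± 0.179 FPKM (SD, n = 3).

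Exosome replicate 2 was nearer to the controls than the other exosome libraries in RAB34, RAB38, RAB27A, RAB23 and RAB7A. These members were named after their values were seen. In others, such as RAB13, it was the farthest from the controls. Across all genes tested, exosome replicate 2 differed from control replicates 1, 2 and 3 with a log2 SD of 0.231, 0.203 and 0.201. From exosome replicates 1 and 3 it differed with a log2 SD of 0.244 and 0.251. Without exosome replicate 2, 297 genes passed an adjusted p of 0.05 (2.74% of those tested), and 0 of the 37 RAB GTPases did. RAB25 had the lowest adjusted p of the family there, at 0.0600. At an unadjusted p under 0.05, 6 GTPases were then lower, the 5 named above and RAB7A (all genes 11.8%). RAB23, RAB27A, RAB34 and RAB38 were higher, which makes 4 (all genes 10.2%).

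**Figure D4:**
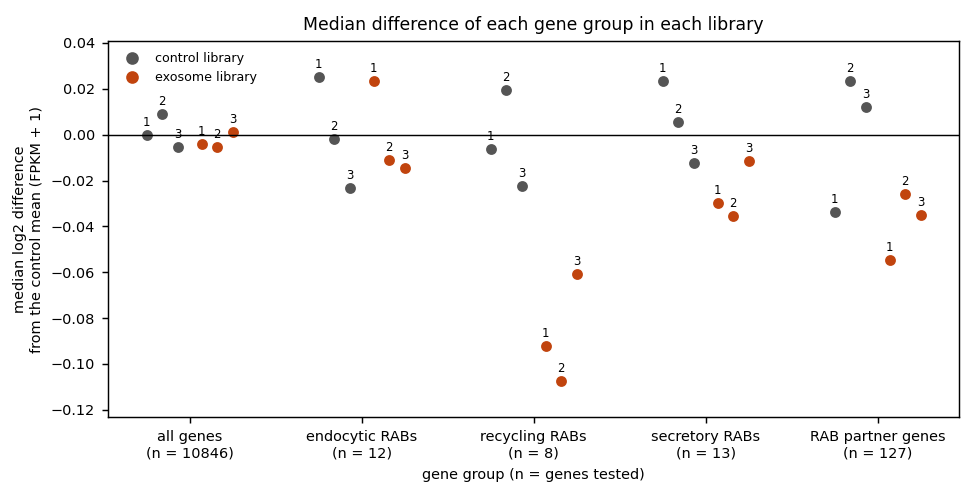
Median log2 difference from the control mean, on the FPKM + 1 scale, in each library (numbered by replicate), for all genes tested, for endocytic, recycling and secretory RABs and for the listed RAB partner genes. Recycling RABs lie between -0.11 and -0.06 in the exosome libraries and between -0.02 and 0.02 in the controls, while all genes lie within 0.01 of 0.

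The 6 rows named after a RAB that are not GTPases did not pass either, with log2 changes from -0.12 to 0.11. RAB11FIP4, which links RAB11 to its effectors, was at 5.61, 6.14 and 6.06 FPKM in the control replicates and 5.53, 5.57 and 5.20 FPKM in the exosome replicates, without overlap (adjusted p = 0.561 in limma). The other RAB11 adaptors, RAB11FIP3 and RAB11FIP2, had log2 changes of -0.07 and 0.11 with overlapping groups. RAB3GAP1 and RAB3GAP2, which form a complex that switches RAB3 off and RAB18 on, were at 23.4 ± 0.572 and 33.4 ± 1.93 FPKM in controls and 22.8 ± 0.360 and 33.8 ± 1.98 FPKM in exosome libraries (SD, n = 3). RAB6IP2, listed as ERC1 in the reference table and a scaffold at sites of fusion, had a log2 change of -0.12, and -0.23 without exosome replicate 2.

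The reference table assigns 3 more rows without a symbol to RAB GTPases. RAB4B, the relative of RAB4A, was at 13.6, 14.0 and 13.3 FPKM in the control replicates and 10.5, 12.3 and 12.6 FPKM in the exosome replicates, so its groups did not overlap either. Its log2 change was -0.20 with an SE of 0.08 (adjusted p = 0.367 in limma). RAB6A, of transport within the Golgi, was at 86.1 ± 3.26 FPKM in controls and 85.0 ± 0.685 FPKM in exosome libraries, and RAB2A at 76.5 ± 4.08 and 77.5 ± 3.35 FPKM (SD, n = 3). With these rows added, 6 of 40 GTPases were lower at an unadjusted p under 0.05 (15.0%, where all genes gave 7.5%).

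A RAB works through proteins that attach its lipids, switch it on or off and read its state. Of 149 symbols listed for these roles, 119 were found, in 127 rows, 5 of which are among the 6 partner rows above. None passed an adjusted p of 0.05. At an unadjusted p under 0.05, 11 of 127 were lower (8.66%, where all genes gave 7.5%) and 1 was higher (0.787%, where all genes gave 5.06%). With each library scaled to the same FPKM sum, 2 were lower and 5 higher. The number lower was between 2 and 18 when 1 library was left out: 7, 2 and 5 without control replicates 1, 2 and 3, and 2, 18 and 9 without exosome replicates 1, 2 and 3. Without exosome replicate 2, 11.8% of all genes were lower. The share of all genes was not counted in the other fits that left out a library or scaled the libraries. The median log2 change was -0.03.

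Of 8 rows for lipid addition and recycling from membranes, 4 had a log2 change above 0 and 4 below. At an unadjusted p under 0.05, 0 were lower (all genes 7.5%) and 0 higher (all genes 5.06%). The exosome libraries lay entirely below the controls in 2 (25%, where all genes gave 10.4%) and entirely above them in 0 (all genes 8.29%). The lowest log2 change was -0.18, for RABAC1, with overlapping groups (adjusted p = 0.409 in limma). GDI2, which extracts RABs from membranes, was at 286.2 ± 8.11 FPKM in controls and 271.6 ± 3.82 FPKM in exosome libraries (SD, n = 3). Its exosome libraries lay below the controls, with a log2 change of -0.08 (adjusted p = 0.504 in limma). The geranylgeranyl transferase subunits RABGGTA and RABGGTB, which attach the lipids, had log2 changes of 0.00439 and 0.11 (the identifier of the RABGGTB row is listed under MSH4 in the reference table), and CHM, the escort of new RABs, of -0.00775.

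Among factors that switch RABs on, 4 of 40 rows were lower at an unadjusted p under 0.05 and 0 higher. That is 10.0% lower, near the 7.5% over all genes, of which 5.06% were higher. TRAPPC1, a core subunit of the TRAPP complex that activates RABs of the Golgi, was at 90.5, 90.7 and 86.9 FPKM in the control replicates and 78.0, 80.5 and 79.8 FPKM in the exosome replicates. The groups were more than 6 FPKM apart, and the log2 change was -0.17 with an SE of 0.04 (adjusted p = 0.251 in limma). The other 3 were TRAPPC2L, a further TRAPP subunit, RGP1, of the RAB6 exchange complex, and MON1A, of the RAB7 exchange complex, with log2 changes from -0.20 to -0.18. Among factors that switch RABs off, 2 of 36 rows had an unadjusted p under 0.05 on the lower side (5.56%, where all genes gave 7.5%) and 1 on the higher side (2.78%, where all genes gave 5.06%). They were TBC1D17 and 1 of the 2 rows of TBC1D2B (log2 changes -0.18 and -0.23, adjusted p = 0.367 and 0.382 in limma), and EVI5 (log2 change 0.18, adjusted p = 0.317). The second TBC1D2B row had a log2 change of -0.03.

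Among effectors, 5 of 43 rows were lower at an unadjusted p under 0.05 (11.6%, where all genes gave 7.5%) and 0 were higher (all genes 5.06%). The exosome libraries lay entirely below the controls in 6 (14.0%, where all genes gave 10.4%) and entirely above them in 4 (9.30%, where all genes gave 8.29%). MYO5B, the motor that moves RAB11 and RAB25 carriers, was at 53.9, 58.9 and 57.1 FPKM in the control replicates and 46.8, 55.3 and 45.5 FPKM in the exosome replicates. Exosome replicate 2 lay within the control range. MYO5B had a log2 change of -0.20 (adjusted p = 0.367 in limma) and -0.29 without exosome replicate 2, where it passed at an adjusted p of 0.0453. OPTN, an effector of RAB8, was at 97.2 ± 2.68 FPKM in controls and 86.1 ± 8.56 FPKM in exosome libraries (SD, n = 3). It too passed without exosome replicate 2 (log2 change -0.26, adjusted p = 0.0439 in limma) and not with all libraries (adjusted p = 0.378). These were the 2 of 127 partner rows that passed in that fit, where 2.74% of all genes did.

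UNC13D, a RAB27 effector which primes granules for fusion, was at 48.0, 50.7 and 47.8 FPKM in the control replicates and 38.6, 46.5 and 43.4 FPKM in the exosome replicates, without overlap (log2 change -0.19, adjusted p = 0.357 in limma). SYTL1, also of RAB27, was at 6.36, 5.64 and 5.43 FPKM in the control replicates and 3.77, 5.50 and 4.41 FPKM in the exosome replicates, with overlap (log2 change -0.30, adjusted p = 0.375). Other RAB27 effectors had an unadjusted p above 0.05, with overlapping groups: the log2 change was -0.13 for SYTL2, -0.05 for SYTL4 and -0.04 for EXPH5. MYO5A, a motor that RAB27A recruits through an adaptor, was at 9.06, 9.91 and 10.06 FPKM in the control replicates and 11.07, 10.39 and 11.21 FPKM in the exosome replicates, entirely above the controls (log2 change 0.16, adjusted p = 0.402 in limma). RAB27 effectors were not counted as a list of their own. The last of the 5, RILPL2, linked to RABs of the cilium, was at 8.63 ± 0.477 and 7.28 ± 0.288 FPKM (SD, n = 3; log2 change -0.22). EEA1, the early endosome tether bound by RAB5, was at 19.7 ± 0.757 and 21.0 ± 0.445 FPKM, with the exosome libraries above the controls (log2 change 0.09, adjusted p = 0.554 in limma), and was chosen after its values were seen.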

How the data were processed

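RNA from 6 libraries was sequenced after a stranded mRNA preparation, per the labels' protocols. The submitters' processing notes name bcl2fastq 1.8.4, TopHat, Cufflinks and the build Sscrofa11.1, with no settings, and neither the annotation release nor any filter was found in the labels. The authors deposited a table read here as FPKM, after Cufflinks, since no header names the unit. How the annotation split close relatives (RAB1A and RAB1B, the RAB28 rows) is unknown. The table holds 10916 rows, 1 without values, and no value of 0.

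Columns were matched to samples by title. Values were tested as log2(FPKM + 1), which understates changes of low genes, for the 10846 genes whose mean reached 1 FPKM, with limma 3.58.1 in R 4.3.3 (two-sided, with an intensity trend and 4 residual degrees of freedom; Benjamini-Hochberg over all genes tested, threshold 0.05). An exact permutation test of 3 against 3 libraries cannot go below p = 0.1 and was not used. The fit was tested on simulated data. Alternatives were other pseudocounts, filters, scalings, no intensity trend, a block for the replicate number, and each library left out.

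The family, its classes and the partner and marker lists were chosen with earlier results of these data known. The rule for named genes took, in each class, the 3 highest in level and the 3 with the smallest p, close relatives, all with an unadjusted p under 0.05 and the shared carriers and lipid-adding enzymes, of which 1 is not reported here; other members are named to account for all. Identifiers of 28 of the 45 rows were found in the gene name table, 2 under another symbol (RAB1B, RAB6IP2). Positions are from RefSeq. No genome, promoter or protein sequence was used here. Python 3.11.15 with matplotlib 3.10.9 drew the plots.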

Additional observations from a re-analysis of the deposited data

How the results depend on the processing

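Under 14 alternatives 0 RAB GTPases passed the adjusted threshold, and RAB25, RAB11B, RAB4A, RAB5C and RAB3D kept log2 changes below 0. When 1 library was left out, the number of all genes passing ranged from 0 to 297 (297 without exosome replicate 2, 1 without control replicate 3). GTPases lower at an unadjusted p under 0.05 ranged from 1 to 6 in those fits and GTPases higher from 0 to 4. The highest counts were without exosome replicate 2, where all genes gave 11.8% lower and 10.2% higher. The medians ranged from -0.048 to -0.023 for all RABs, -0.028 to 0.024 for endocytic, -0.12 to -0.064 for recycling and -0.049 to 0.018 for secretory members. Depth is unknown, so no counting error can be given, and low members such as RAB27B and RAB42 are the least precise.

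Scaling to the same FPKM sum raised the median of all genes from -0.0023 to 0.045. The count of GTPases at an unadjusted p under 0.05 was then 1 lower and 1 higher, and the medians were 0.021 (all RABs), 0.064 (endocytic), -0.052 (recycling), 0.024 (secretory) and 0.0089 (partner genes). It turned the log2 change of RAB8A to 0.0015, RAB1B to 0.015, RAB10 to 0.018, RAB3GAP1 to 0.016, RAB35 to 0.012, RAB14 to 0.027, the RAB28 rows to 0.021 and 0.032, RAB6A to 0.033, CHM to 0.039 and RAB27B to 0.024. Quantile normalization gave 1 GTPase higher and a median of -0.0079, and turned RAB6A to 0.013 and 1 RAB28 row to 0.00086. The share of all genes at an unadjusted p under 0.05 was not counted in either fit. The FPKM sums were lower in the exosome libraries, so scaling to the same sum raises their values against the controls. The causes of the lower sums and of the quantile result were not tested.

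Leaving out 1 library turned the sign of members near 0. Their lowest and highest log2 changes were -0.0093 and 0.23 for RAB11FIP2, -0.011 and 0.31 for RAB36, -0.0046 and 0.079 for RAB21, -0.052 and 0.0023 for RAB10, -0.12 and 0.0098 for RAB29, -0.20 and 0.037 for RAB37, -0.014 and 0.14 for RAB42, -0.012 and 0.054 for RAB18, -0.22 and 0.12 for RAB15, and -0.017 and 0.064 for RAB8B. They were -0.066 and 0.018, and -0.055 and 0.032, for the RAB28 rows, -0.064 and 0.12 for RAB19, -0.034 and 0.013 for RAB6A, -0.016 and 0.062 for RAB2A, -0.054 and 0.13 for RAB3A, -0.028 and 0.044 for RAB32, and -0.027 and 0.057 for RAB3GAP2. They were -0.055 and 0.027 for CHM, -0.15 and 0.14 for RAB27B, -0.085 and 0.11 for RAB31, and -0.052 and 0.073 for RABGGTA.

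Same-numbered libraries had correlations of their deviations of 0.161, 0.144 and -0.0701, and differently numbered ones from -0.271 to 0.169. With 3 libraries per group, these values cannot decide whether the numbers pair the samples. With the replicate number as a block, 0 RAB GTPases passed and 4 were lower at an unadjusted p under 0.05 (RAB4A no longer), and the medians were the same. The share of all genes lower at that p was not counted in the block fit. Adding the 3 GTPases named by the reference gave a median of -0.026 and leaving out RAB1B and 1 RAB28 row -0.023, both chosen after seeing the data.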

Other observations

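The median coefficient of variation of the 37 tested GTPases was 3.81% across controls and 5.59% across exosome libraries, where all genes tested had 5.30% and 7.67%. The 39 GTPase rows also had a higher median level, 21.8 FPKM against 14.8 FPKM over all rows, and the difference in spread was not tested. The most even members over the control libraries were RAB10 (1.02%), RAB18 (1.46%) and RAB14 (1.58%), and the least even tested ones were RAB15 (32.2%), RAB36 (30.6%) and RAB27B (28.6%), all under 5 FPKM.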
